A study of Homo sapiens with 12 samples.

Results

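The 10 genes described here encode enzymes of the methionine cycle, of methionine salvage, of the route from homocysteine to cysteine, and of the rate-limiting step of glutathione synthesis: MAT2A, MAT2B, AHCY, MTR, APIP, MTAP, CBS, CTH, GCLC and GCLM. They were chosen by name from the 20212 genes of the deposited count table, and all 10 were found in it. PANC-1 cells, an established human pancreatic cancer line, were treated with DMSO as the control or with 50 nM rapamycin, an inhibitor of the mTORC1 kinase complex, for 60 min. Each treatment had 3 cultures, described as biological replicates, and each of the 6 cultures gave 1 library of ribosome-protected fragments (RF) and 1 library of total RNA. The comparison asks whether mTOR inhibition changed the RF, the total RNA, or the RF relative to total RNA, which is called the translation efficiency (TE).

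Methionine is activated to S-adenosylmethionine, the methyl donor of most cellular methylation reactions. The S-adenosylhomocysteine left after methyl transfer is split to homocysteine, which is either remethylated to methionine or passed through cystathionine to cysteine. Cysteine is then joined to glutamate as the first step towards glutathione, the main thiol that cells use against oxidants, and a separate salvage route rebuilds methionine from the methylthioadenosine released by polyamine synthesis.

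The RF libraries held between 278835 and 1574723 counts on exons, and those of total RNA from 78081241 to 94293744. The limit that a count of 0 allows, 3 counts, came to 1.91 CPM (counts scaled to the library's total) in the deepest RF library and 10.8 CPM in the shallowest, and covers counting error only. Between cultures, the biological coefficient of variation was 54.9% for RF and 5.31% for total RNA, and 24.4% where both were fitted together for TE, so the SE of a TE change below can be smaller than that of the RF change of the same gene. DMSO replicate 1 and rapamycin replicate 3 had the smallest RF libraries, and DMSO replicates 1 and 2 stood apart in total RNA, with 16840 and 16858 genes detected against 19751 to 19847 in the other 4 libraries. The ductal keratins KRT7, KRT8, KRT18 and KRT19 lay between 9.83 and 1765 FPKM (fragments scaled to transcript length and library size), and 7 markers of acinar, islet, blood and stromal cells lay between 0 and 1.53 FPKM, COL1A1 being the highest.

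In total RNA, compared per length, MAT2A was the most abundant of the 10 at 217 FPKM ± 6.43 (SD over the 6 cultures), and CTH the least abundant at 1.80 ± 0.150 FPKM. AHCY followed MAT2A at 82.6 ± 2.73 FPKM and GCLC came next at 55.1 ± 2.65 FPKM, and none of these 3 overlapped its neighbour in any culture. APIP, MAT2B, GCLM, CBS and MTR formed a group between 28.9 and 23.2 FPKM in which each neighbour overlapped the next. MTAP, at 3.69 ± 0.849 FPKM, lay below that group and above CTH. The order in RF, as CPM per kilobase of the longest annotated coding sequence, began with MAT2A at 133 ± 23.7, AHCY at 81.9 ± 22.7 and GCLC at 69.2 ± 23.7, and ended with MTR at 10.1 ± 3.03, MTAP at 6.17 ± 4.46 and CTH at 1.92 ± 3.80. Every pair of neighbours in the RF order overlapped. The 10 genes together held 2963 RF counts over all libraries, or 0.0583% of the RF counts, and 26.8% of these were on MAT2A.

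**Figure D1:**
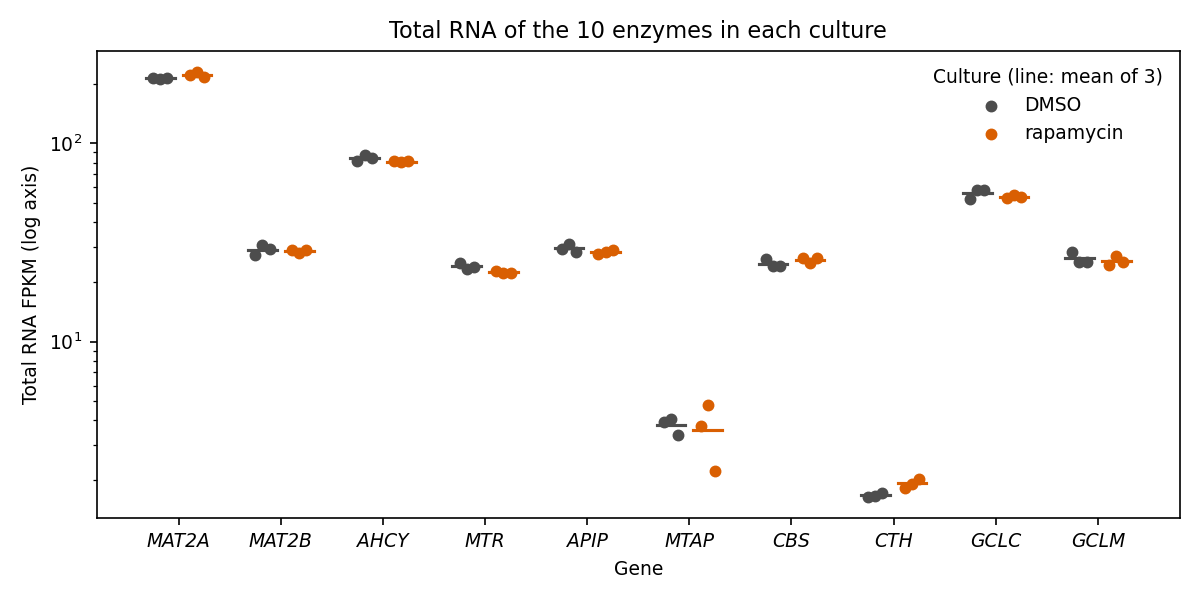
Total RNA of the 10 enzymes, with genes on the x axis in the order of their place in the pathway and FPKM on a logarithmic y axis. Each point is 1 culture and each line the mean of 3. MAT2A sits at the top in every culture (212 to 229 FPKM), MTAP and CTH at the bottom, and MTAP has the widest spread between cultures (2.22 to 4.77 FPKM).

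By edgeR's quasi-likelihood test, 0 of the 10 enzymes changed in TE at an adjusted p under 0.05, where 0% of all tested genes did (Benjamini-Hochberg over the 13329 genes with at least 10 counts in RF and in total RNA). An unadjusted p under 0.05 in TE was reached by 3 of the 10, APIP and CTH lower in rapamycin and MTR higher, where 12.6% of all tested genes reached it (6.42% lower and 6.17% higher). The smallest adjusted p of the 10 was 0.302, for APIP. CTH passed the count minimum only through DMSO replicate 3, so its direction was fixed by the minimum and the tally is a description. The fit does not use that the RF and the total RNA library came from the same culture. With the culture as a block in edgeR's model, 0 of the 10 enzymes reached an unadjusted p under 0.05, with values of 0.339 for APIP, 0.382 for CTH and 0.116 for MTR. With limma's voom and a variance per library type, 0 of the 10 did so either, with 0.143 for APIP and 0.177 for MTR. In RF alone 0 of 10 passed the adjusted threshold (0% of all genes) or an unadjusted p under 0.05 (3.68% of all genes), and in total RNA alone 0 of 10 passed either (0% and 5.82% of all genes, 2.51% lower and 3.32% higher), again by edgeR's quasi-likelihood test. DESeq2's Wald test called 0 of the 10 in RF and in total RNA as well. In DESeq2's Wald test of TE, run as an alternative, APIP and MAT2B were lower in rapamycin at adjusted p-values of 0.0161 and 0.0104, and this test called 4.37% of all tested genes lower and 4.91% higher.

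**Figure D2:**
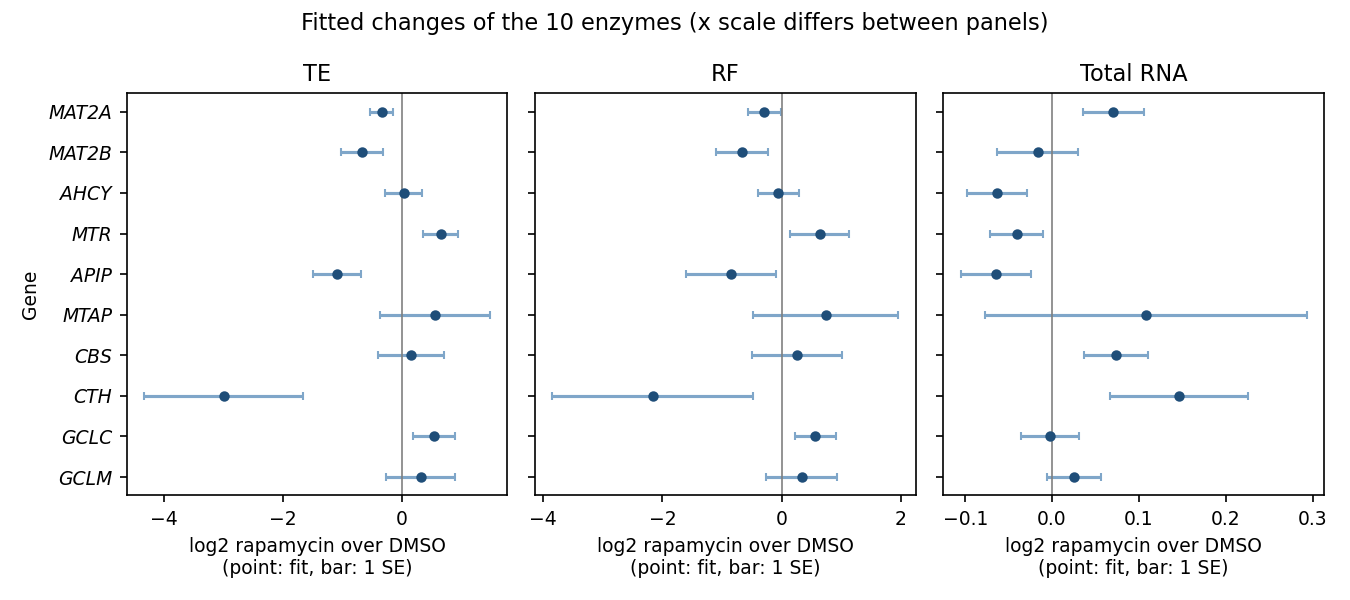
Fitted log2 changes in TE, RF and total RNA of the 10 enzymes from the edgeR fits, with genes on the y axis and log2 of rapamycin over DMSO on the x axis, whose scale differs between the 3 panels. Points are the fitted change and bars 1 SE. The TE values run from -3.00 for CTH to 0.65 for MTR, the total RNA values only from -0.06 for APIP to 0.15 for CTH.

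The median log2 change in TE over the 10 enzymes was 0.09, with 4 lower and 6 higher in rapamycin, and over all tested genes it was -0.06. In RF the median was 0.10 for the enzymes, 5 lower and 5 higher, and 0.02 for all tested genes. In total RNA both medians were 0.01. The enzymes split in direction in each of the 3 measures. These are bulk cultures scaled to the total of each library. A change shared by all genes, in cell number, RNA per cell or footprints, therefore cannot be seen. Each change in RF, total RNA or TE is relative to the other genes.

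MAT2A is the catalytic subunit of the methionine adenosyltransferase that makes S-adenosylmethionine outside the liver. Its RF were 166, 202 and 155 CPM in DMSO replicates 1, 2 and 3 and 167, 139 and 120 CPM in rapamycin replicates 1, 2 and 3. The treatments overlapped because rapamycin replicate 1 lay above DMSO replicates 1 and 3, while the other two rapamycin cultures lay below every DMSO culture. The fitted log2 change in RF was -0.29 ± 0.27 (SE), with an unadjusted p of 0.308 in edgeR's test. On the log2 TE scale the DMSO cultures were at -1.50, -1.24 and -1.57 and the rapamycin cultures at -1.55, -1.88 and -1.98, with a fitted change of -0.34 ± 0.20 and an adjusted p of 0.499 in edgeR's quasi-likelihood test. When any culture was left out, the change in RF lay between -0.44 and -0.17 and that in TE between -0.50 (unadjusted p = 0.0397, without rapamycin replicate 1) and -0.22 (without DMSO replicate 2). The two-sided exact permutation test of these 3 against 3 values gave p = 0.2, where 0.1 is the smallest p this design allows.

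Total RNA of MAT2A was 215, 212 and 213 FPKM in DMSO and 220, 229 and 215 FPKM in rapamycin. Every rapamycin culture thus lay above every DMSO culture in FPKM, by a narrow margin, while the CPM of the same libraries overlapped. FPKM did not overlap and was higher in rapamycin for 2 of the 10 enzymes, MAT2A and CTH, and lower for 1, MTR, where 5.93% and 6.82% of tested genes with an FPKM did so. The fitted log2 change of MAT2A in total RNA was 0.07 ± 0.04, with an adjusted p of 0.766 in edgeR's test. MAT2A lies on chromosome 2 between 85766291 and 85772404 (GRCh37, plus strand), and its 3′ end overlaps GGCX on the other strand, so reads there cannot be told apart without strand, whose setting in the authors' counting is not given in the sources used here.

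MAT2A is known for an mRNA that senses S-adenosylmethionine: its 3′ untranslated region carries hairpins that the methyltransferase METTL16 binds, and when S-adenosylmethionine is scarce the last intron, otherwise partly retained, is spliced out. The hairpin loops share the letters TACAGAGAA or TACAGAAAA. These 2 motifs were searched on the transcribed strand of the full-length mRNA (GENCODE v44 lifted to GRCh37), and 6 matches were found, all in the last exon after the stop codon. They are shown with 10 bases on either side, the motif in capitals, because the flanks are the strands that would pair in a hairpin and because the isoforms described next differ in whether they hold them.

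MAT2A site 1, chr2:85770925-85770953: tggcgtaggcTACAGAGAAgccttcaagc
MAT2A site 2, chr2:85771712-85771740: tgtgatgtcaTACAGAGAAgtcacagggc
MAT2A site 3, chr2:85771897-85771925: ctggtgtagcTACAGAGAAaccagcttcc
MAT2A site 4, chr2:85772012-85772040: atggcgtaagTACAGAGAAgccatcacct
MAT2A site 5, chr2:85772127-85772155: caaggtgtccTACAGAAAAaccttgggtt
MAT2A site 6, chr2:85772235-85772263: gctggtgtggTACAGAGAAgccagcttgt

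Site 1 began 43 bases and site 6 began 1353 bases after the stop codon. Of 4613 3′ untranslated regions of leading isoforms at least as long as that of MAT2A, read over the same first 1512 bases, 192 (4.16%) held at least 1 match, and the highest number in any other was 2. A match is a run of letters and no measurement of binding.

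The last intron of MAT2A, intron 8, spans 635 bases at chr2:85770158-85770792. Of the annotated isoforms, 2 run into it and end inside it, 1 coding and 1 labelled as a retained intron, and neither holds any of the 6 sites, while the full-length isoform that splices it out holds all 6. In Cufflinks' estimates, the isoforms that run into the intron made up 36.4%, 35.2% and 36.1% of the gene's summed isoform FPKM in DMSO and 36.4%, 36.3% and 36.7% in rapamycin. The full-length isoform held 46.3%, 48.8% and 46.2% in DMSO and 47.8%, 46.8% and 47.5% in rapamycin. Both measures overlapped between treatments, and the means of the intron-reaching share, 35.9% ± 0.610 and 36.5% ± 0.208 (SD, n = 3 each), differed by less than the DMSO spread. No isoform quantified here retains the whole intron and runs on into the sites. The shares therefore do not measure retention of this intron in an mRNA that holds the hairpins.

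**Figure D3:**
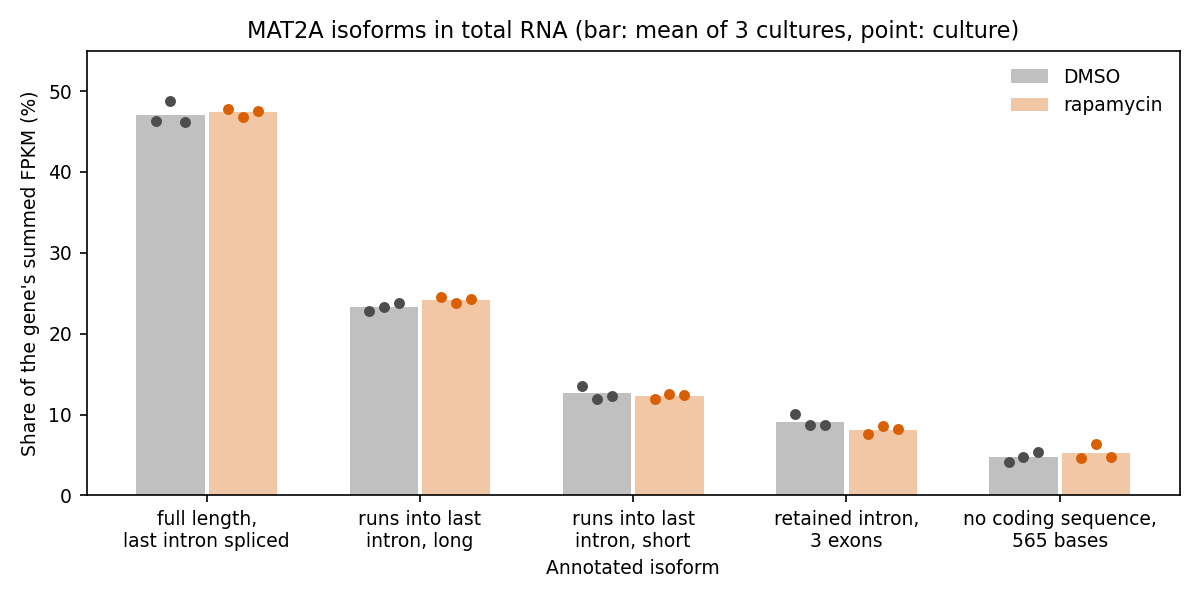
Share of each MAT2A isoform in the gene's summed isoform FPKM, with annotated isoforms on the x axis and percent on the y axis, which starts at 0. Bars are means of 3 cultures and points are cultures. The full-length isoform (about 47.1% in DMSO and 47.4% in rapamycin) and the isoforms that run into the last intron overlap between treatments; the 3-exon retained-intron isoform is the one whose points do not overlap, 9.11% in DMSO against 8.14% in rapamycin.

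MAT2B encodes the regulatory subunit of the same enzyme. Its RF were 40.0, 75.4 and 82.2 CPM in DMSO and 45.6, 46.0 and 33.3 CPM in rapamycin. DMSO replicates 2 and 3 lay above every rapamycin culture and DMSO replicate 1, the smallest DMSO library, lay among them. Its log2 change in TE was -0.67 ± 0.35, with an unadjusted p of 0.0739 and an adjusted p of 0.447 in edgeR's test, and it stayed between -0.81 and -0.52 when any culture was left out. Total RNA of MAT2B was 29.1 ± 1.60 FPKM in DMSO and 28.7 ± 0.629 FPKM in rapamycin (SD, n = 3 each), a difference smaller than the spread. Per length, the RNA of the catalytic subunit exceeded that of the regulatory subunit 7.34-fold ± 0.455 in DMSO and 7.72-fold ± 0.411 in rapamycin. Isoforms with no annotated coding sequence held 29.6% of the MAT2A FPKM in DMSO and 28.5% in rapamycin. For MAT2B these shares were 1.30% and 1.45%. In RF per kilobase of coding sequence, a different measure, the subunit ratio was 3.59, 2.32 and 1.63 in the DMSO cultures. It was 3.15, 2.61 and 3.11 in the rapamycin cultures, so the treatments overlapped.

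AHCY, the hydrolase that splits S-adenosylhomocysteine, had RF of 86.1, 137 and 103 CPM in DMSO and 148, 87.1 and 76.5 CPM in rapamycin. The highest and the lowest of the 6 values were both rapamycin cultures. Its fitted log2 change in TE was 0.03 ± 0.31, with an adjusted p of 0.980 in edgeR's test. Total RNA of AHCY was 203, 218 and 206 CPM in DMSO and 199, 199 and 202 CPM in rapamycin, and these groups did not overlap, which was true in this direction for 6.61% of all tested genes. In FPKM the groups did overlap, narrowly, at 81.28, 87.55 and 84.17 in DMSO and 81.08, 80.47 and 81.29 in rapamycin. The log2 change in total RNA was -0.06 ± 0.03, with an unadjusted p of 0.0942 and an adjusted p of 0.766 in edgeR's test.

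MTR, the cobalamin-dependent synthase that remethylates homocysteine to methionine, was the enzyme whose cultures separated by treatment in RF and in TE. Its RF were 33.8, 23.9 and 31.9 CPM in DMSO and 38.1, 46.0 and 56.6 CPM in rapamycin, from raw counts of 11, 19 and 47 and of 46, 38 and 17. Every rapamycin culture lay above every DMSO culture, as was true in RF for 5.24% of all tested genes, while 4.21% did not overlap in the other direction (9.45% in either). On the log2 TE scale the DMSO cultures were at -2.07, -2.46 and -2.11 and the rapamycin cultures at -1.84, -1.57 and -1.29, again without overlap (4.8% of all tested genes in this direction and 6.19% in the other), and the two-sided exact permutation test gave p = 0.1, the smallest it can give. The fitted log2 change in TE was 0.65 ± 0.29, with an unadjusted p of 0.0425 and an adjusted p of 0.378 in edgeR's quasi-likelihood test, and it lay between 0.51 and 0.80 when any culture was left out.

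Total RNA of MTR went the other way by a small amount, at 24.9, 23.2 and 23.9 FPKM in DMSO and 22.7, 22.2 and 22.2 FPKM in rapamycin. The FPKM groups did not overlap, the CPM groups did, and the fitted log2 change was -0.04 ± 0.03. The isoform with the longest coding sequence of MTR made up 19.8%, 19.3% and 19.3% of the gene's summed FPKM in DMSO and 20.9%, 20.5% and 21.8% in rapamycin, and these shares did not overlap. Of the 33 isoforms that made up at least 5% of an enzyme's FPKM, 4 (12.1%) did not overlap between treatments, 2 lower and 2 higher in rapamycin, where 9.89% of such isoforms of all tested genes did not (4.7% lower and 5.19% higher).

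APIP, the dehydratase of the methionine salvage route, had RF of 9.23, 25.1 and 31.9 CPM in DMSO and 8.29, 16.9 and 13.3 CPM in rapamycin, from 70 counts in DMSO and 28 in rapamycin. DMSO replicates 2 and 3 lay above every rapamycin culture, and DMSO replicate 1, which rested on 3 counts, lay below 2 of them. In the fit, the log2 change in TE was -1.08 ± 0.40, with an unadjusted p of 0.0172 and an adjusted p of 0.302 in edgeR's test, and it was -0.68 without DMSO replicate 3 and -0.64 with the replicate number as a block. The two-sided exact permutation test of log2 TE over the 6 cultures gave p = 0.4. Total RNA of APIP was 29.5 ± 1.43 FPKM in DMSO and 28.3 ± 0.764 FPKM in rapamycin (SD, n = 3 each). Cufflinks placed 53.5% of the summed isoform FPKM in DMSO and 55.4% in rapamycin on an isoform with no annotated coding sequence, and the gene overlaps PDHX on the other strand.

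MTAP, the phosphorylase that starts methionine salvage from methylthioadenosine, was covered by 1, 7 and 2 footprints in DMSO and by 4, 6 and 4 in rapamycin. Summed over cultures, 14 counts against 10 gave a ratio of rapamycin over DMSO of 1.66 (95% interval 0.686 to 4.18, counting error only), so no difference was detectable at this depth. Its total RNA held 167 to 223 counts per library. CTH had more total RNA counts than MTAP, 2155 against 1166 over all 6 libraries, although its FPKM was lower. Most of the FPKM of MTAP lay on 2 isoforms of 753 and 578 bases, at 1.42 and 1.28 FPKM, which end at positions 21837926 and 21818044. The isoform with a coding sequence of 900 bases, which runs on to position 21862319, lay between 0.214 and 0.421 FPKM.

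MTAP lies at 9p21 (GRCh37 chromosome 9, 21802635 to 21937650, plus strand), beside CDKN2A, in a region often deleted in pancreatic cancer, including in PANC-1. No copy number was measured here, and the RNA of the neighbourhood is given as values. FOCAD and KLHL9, on the side of lower coordinates, lay between 4.68 and 5.93 FPKM in every culture. CDKN2A, whose start coordinate is 165 kb from that of MTAP, had 1, 0 and 31 total RNA counts in DMSO and 154, 148 and 18 in rapamycin, and CDKN2B had 0, 0 and 12 against 91, 91 and 12. Both genes thus had their highest counts in rapamycin replicates 1 and 2 and their lowest in DMSO replicates 1 and 2, the libraries with the fewest genes detected, whose part in this was not tested. The treatments overlapped through the third culture of each. CDKN2A had 15 to 156 RF counts in each culture, more than MTAP, though its FPKM stayed at or below 0.885. DMRTA1, further on, had 1.12 to 1.72 FPKM in total RNA and 0 RF counts in all 6 libraries, and MLLT3, IFNE and ELAVL2 stayed at or below 0.543 FPKM.

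**Figure D4:**
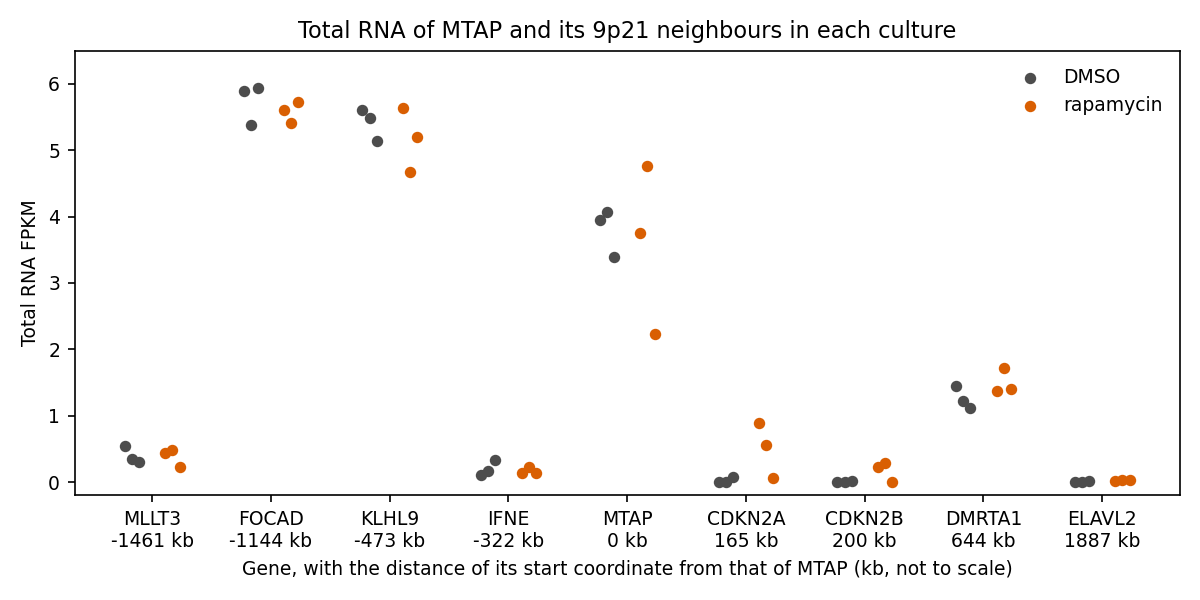
Total RNA of MTAP and 8 genes around it, with genes on the x axis in order of position (distance of each start coordinate from that of MTAP in kb) and FPKM on the y axis. Points are cultures. FOCAD and KLHL9 lie between 4.68 and 5.93 FPKM, MTAP between 2.22 and 4.77, and CDKN2A and CDKN2B below 1, with rapamycin replicates 1 and 2 highest.

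CBS, the synthase that joins homocysteine to serine as the first step towards cysteine, had RF of 21.5, 5.03 and 26.5 CPM in DMSO and 15.8, 30.3 and 16.6 CPM in rapamycin. DMSO replicate 2, with 4 counts, lay below all others, and the treatments overlapped. Its log2 change in TE was fitted at 0.15 ± 0.55, with an adjusted p of 0.939 in edgeR's test, and it ranged from -0.34 without DMSO replicate 2 to 0.99 without DMSO replicate 3. Total RNA of CBS was 24.8 ± 1.26 FPKM in DMSO and 25.9 ± 0.907 FPKM in rapamycin (SD, n = 3 each).

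CTH, the lyase that releases cysteine from cystathionine, was at RF counts of 0, 0 and 17 in DMSO and of 0, 2 and 0 in rapamycin. All DMSO counts came from replicate 3, the deepest RF library, at 11.5 CPM. The counts of 0 allow up to 9.89 and 3.40 CPM in DMSO replicates 1 and 2 and up to 2.39 and 10.8 CPM in rapamycin replicates 1 and 3. These limits use raw library totals, while the 11.5 CPM uses a scaled total, so they compare only roughly. Summed over cultures, the ratio of rapamycin over DMSO was 0.139 (95% interval 0.0156 to 0.588), an interval of counting error that leaves out the difference between the DMSO cultures themselves. The fitted log2 change in TE was -3.00 ± 1.34 (unadjusted p = 0.0415, adjusted p = 0.375 in edgeR's test). Without DMSO replicate 3 it became 8.09 ± 7.74, resting on the 2 counts of rapamycin replicate 2. The direction of the reported fit thus rested on DMSO replicate 3. With the replicate number as a block the change was -1.32.

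Total RNA of CTH was 1.65, 1.67 and 1.73 FPKM in DMSO and 1.83, 1.91 and 2.03 FPKM in rapamycin. Every rapamycin culture lay above every DMSO culture in FPKM and also in CPM (8.22% of all tested genes in this direction). In total RNA the fitted log2 change was 0.15 ± 0.08, with an unadjusted p of 0.0967 and an adjusted p of 0.766 in edgeR's test.

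GCLC is the catalytic and GCLM the modifier subunit of glutamate-cysteine ligase, which makes the dipeptide that becomes glutathione. RF of GCLC were 108, 61.6 and 150 CPM in DMSO and 121, 173 and 183 CPM in rapamycin. DMSO replicate 3 lay above rapamycin replicate 1, so the treatments overlapped, while rapamycin replicates 2 and 3 lay above every DMSO culture. For GCLC the log2 change in TE was 0.53 ± 0.35, with an adjusted p of 0.566 in edgeR's test, and it was 0.94 (adjusted p = 0.136) without DMSO replicate 3 and 0.20 without DMSO replicate 2. Total RNA of GCLC was 56.3 ± 3.33 FPKM in DMSO and 53.8 ± 1.23 FPKM in rapamycin (SD, n = 3 each). Of the summed FPKM of its isoforms found in the annotation used here, 77.3% and 76.2% lay on isoforms with no annotated coding sequence. The leading isoform, at 12.6 FPKM (mean of the 6 libraries), made up 40.6% of that sum in DMSO and 37.2% in rapamycin. That sum thus lay well below the FPKM of the gene, and these are not shares of all GCLC RNA.

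RF of GCLM were 36.9, 10.1 and 65.9 CPM in DMSO and 58.0, 59.3 and 23.3 CPM in rapamycin. The DMSO cultures spread over a wider range than the treatments differed, and the lowest DMSO value rested on 8 counts and the lowest rapamycin value on 7. Fitted over all libraries, the log2 change in TE was 0.31 ± 0.58, with an adjusted p of 0.863 in edgeR's test, and it ran from -0.17 without DMSO replicate 2 to 1.40 without DMSO replicate 3. Total RNA of GCLM was 26.3 ± 1.76 FPKM in DMSO and 25.5 ± 1.37 FPKM in rapamycin (SD, n = 3 each). The RNA ratio of the catalytic over the modifier subunit, per length, was 2.15 ± 0.260 in DMSO and 2.11 ± 0.0638 in rapamycin. Cufflinks placed 53.4% of the summed isoform FPKM of GCLM in DMSO and 50.2% in rapamycin on isoforms with no annotated coding sequence. With part of the GCLC FPKM also on such isoforms, the RNA ratio is not one of coding mRNAs. In RF per kilobase of coding sequence, a different measure, the subunit ratio was 1.62 ± 0.884 in DMSO and 1.84 ± 1.34 in rapamycin. It overlapped between treatments.

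**Figure D5:**
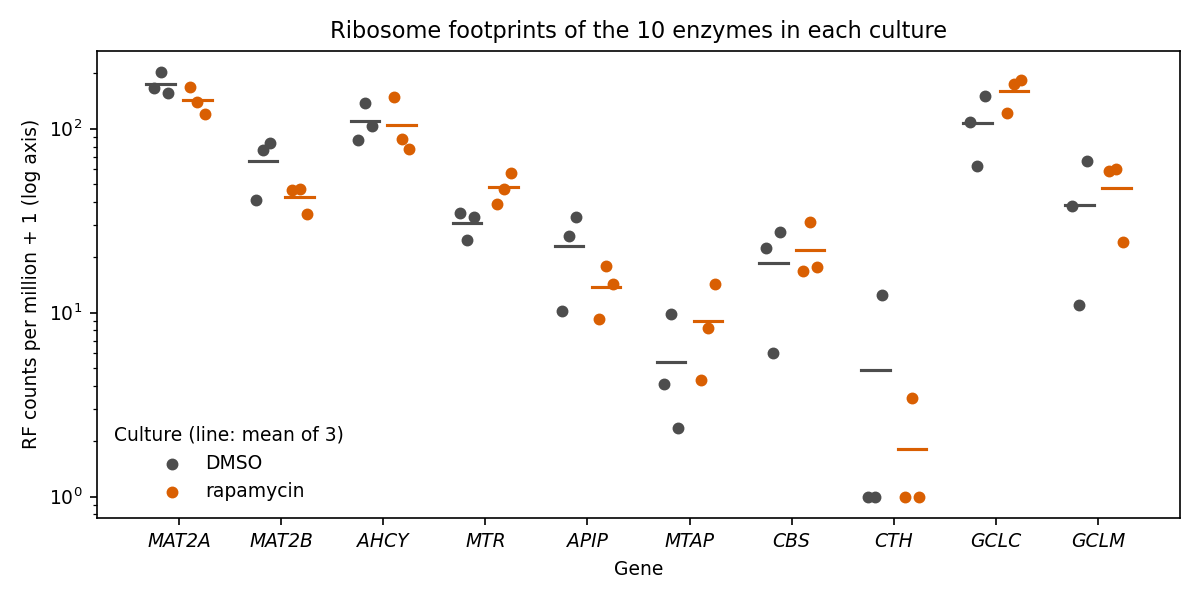
RF of the 10 enzymes, with genes on the x axis and CPM + 1 on a logarithmic y axis. Each point is 1 culture and each line the mean of 3. MTR is the gene whose rapamycin points (38.1 to 56.6 CPM) all lie above its DMSO points (23.9 to 33.8 CPM), and CTH has 4 of its 6 points at a count of 0.

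The mRNAs that mTORC1 is best known to control begin with a terminal oligopyrimidine (TOP) motif, a C followed by an unbroken run of pyrimidines. For each enzyme the leading isoform by FPKM, among those in the annotation used here, was read from its annotated start. A start of C and at least 4 pyrimidines was found in 0 of 10, against 4.03% of the 13080 tested genes that could be read. The MTR isoform read had a 5′ untranslated region of 0 bases and began at 236998916, inside a gene that begins at 236958560. That of GCLC had no coding sequence and began at 53388726, inside a minus-strand gene that begins at 53481768. For MTR and GCLC the start read was thus not the 5′ end of the annotated gene. Restricted to coding isoforms with an annotated 5′ untranslated region, the motif was again found in 0 of 10, against 4.39% of 12851 genes. Even so, the isoforms read for MTR, MTAP and GCLC had coding sequences of 702, 166 and 1083 bases. The longest annotated ones have 3795, 1002 and 1917 bases, and the MTR isoform is labelled for nonsense-mediated decay. The 5′ ends of the 2 most abundant enzymes are shown over 20 bases, with a pyrimidine run at the first base in capitals, since AHCY had the longest such run of the 10 and MAT2A none.

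AHCY, minus strand from chromosome 20 position 32891161: CCCTgctcggcgctgcccgc
MAT2A, plus strand from chromosome 2 position 85766291: gttcgctccgcgccgcccgc

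The run of AHCY was 4 bases, a C and 3 pyrimidines, which is short of the motif as searched. Annotated 5′ ends need not be the ones used in PANC-1, and the absence of these letters says nothing of how the mRNAs are controlled.

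The other genes of the pathway were taken from 4 lists. Of 66 gene names listed, 63 were in the count table and 57 were tested. SQOR (also SQRDL) and KYAT1 (also CCBL1) were each listed under both names, so the 66 names hold fewer genes. In edgeR's quasi-likelihood test, 0 of the 57 passed an adjusted p of 0.05 in TE, RF or total RNA. An unadjusted p under 0.05 in TE was reached by 4, all higher in rapamycin, and by 0 lower, against 6.17% and 6.42% of all tested genes. Of these 4, NNMT and MSRA passed the count minimum only through their rapamycin libraries, so their direction was fixed by the minimum and the tally is a description. The median log2 change in TE over the 57 was 0.13, with 34 higher and 23 lower. Over all 13329 tested genes it was -0.06, with 6168 higher and 7161 lower.

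In the remethylation list, 2 of 10 tested genes reached an unadjusted p under 0.05 in TE. NNMT, which methylates nicotinamide with S-adenosylmethionine, had 0 RF counts in all 3 DMSO cultures and 8, 3 and 1 in rapamycin, with 20 to 48 total RNA counts per library. MSRA, which reduces oxidised methionine, went from RF counts of 0, 0 and 2 in DMSO to 11, 5 and 0 in rapamycin, with a fitted log2 change in TE of 3.06 ± 1.02 and an adjusted p of 0.257 in edgeR's test. Both rested on a few counts and entered the test only because of their counts in rapamycin. NNMT was also the gene of this list under 0.05 in RF, and MMACHC, a cobalamin chaperone, was the one in total RNA, at a log2 change of -0.16 ± 0.05 and an adjusted p of 0.766.

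In the salvage list, 0 of 5 tested genes reached an unadjusted p under 0.05 in any of the 3 measures. In the list of cysteine and sulfur catabolism, 1 of 13 did: NFS1, which takes sulfur from cysteine for iron-sulfur clusters, was counted 2, 12 and 25 times in the DMSO RF libraries and 44, 14 and 15 times in the rapamycin ones, with a log2 change in TE of 1.08 ± 0.40 and an adjusted p of 0.303 in edgeR's test. In the glutathione list of 29 tested genes, 21 were higher and 8 lower in TE, with a median of 0.31 (all tested genes: 6168 higher and 7161 lower). In this list 1 gene reached an unadjusted p under 0.05 in TE. This was LANCL1, which conjugates glutathione to modified proteins, with RF counts of 7, 3 and 39 in DMSO and of 91, 21 and 19 in rapamycin. Its log2 change in TE was 1.48 ± 0.62 (adjusted p = 0.349 in edgeR's test). In RF its log2 change was 1.65 ± 0.66, with an unadjusted p of 0.0236 and an adjusted p of 0.9999 in edgeR's test. In total RNA, OPLAH, the oxoprolinase of the glutathione cycle, was at 0.10 ± 0.04 and GSTO1, a glutathione transferase, at -0.09 ± 0.04, both with an adjusted p of 0.766.

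By Pearson's correlation of log2 TE over the 6 cultures, among 6131 genes with at least 100 RF counts, the genes most like MAT2A were STK17A at 0.986, UACA at 0.986 and TMPRSS3 at 0.986. In all, 137 genes lay above 0.9. These values rest on 6 points that share their libraries and depths.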

How the data were processed

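Ribosome footprints and total RNA of 6 PANC-1 cultures were sequenced. The authors filtered footprint reads on quality, trimmed the linker, removed short and ribosomal RNA reads, aligned both read types to GRCh37 (HISAT2), kept unique alignments and ran featureCounts over protein-coding exons, and they deposited the raw counts. The authors deposited FPKM of genes and isoforms for total RNA, made by Cufflinks 2.2.1 (Cuffnorm) according to the submitters' processing notes. Columns of the authors' own comparison (RF over RNA ratios, fold changes, p-values) were not used, nor were the Cuffnorm counts or a column named fpkm that holds the mean of the 3 DMSO RNA counts.

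The 10 enzymes and the gene lists were chosen with earlier results of these data known. Groups came from the sample titles. Counts were scaled by TMM within each library type, and edgeR 4.0.16 (R 4.3.3) quasi-likelihood tests with robust estimation were fitted for the 13329 genes with at least 10 counts in RF and in total RNA. The change in TE was tested as the type-by-treatment interaction, and SE is the fitted change over the square root of F. P-values were adjusted by Benjamini-Hochberg across all tested genes. For log2 TE of single cultures a prior count of 2 was added. CPM uses the TMM-scaled total, except that the limits for a count of 0 use the raw total. RF per kilobase and all sequences used GENCODE v44 lifted to GRCh37, which is not the authors' annotation version. Isoform shares are of the summed FPKM of the deposited isoforms found in it, which for GCLC is well below the FPKM of the gene. The genes named are the 10 enzymes, genes of the other lists with an unadjusted p under 0.05 (at most 5 per list and fit), the 8 neighbours of MTAP and the 3 genes most like MAT2A. AMD1 and PECAM1 were not analysed here. P-values of the RF and total RNA fits measure the spread between cultures. The TE fit takes the RF and total RNA libraries as independent, with a shared variation per gene for both types. Its p-values therefore do not measure the spread of TE between cultures. Reads carry no molecular identifiers, so intervals cover counting error only. Replicates of a treatment differed by more than sampling noise. Alternatives were DESeq2 1.42.0 size factors and Wald test, limma 3.58.1 (voom, and trend on FPKM), other count minimums, other scalings, blocks and left-out cultures.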

Additional observations from a re-analysis of the deposited data

How the results depend on the processing

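In edgeR's quasi-likelihood test, 0 genes passed an adjusted p of 0.05 in TE, RF or total RNA, and counts across all genes moved as follows. DESeq2's Wald test called 582 lower and 654 higher in TE, 1 and 4 in RF, and 4 and 25 in total RNA. A minimum of 1 count gave 10 and 10 in RF. In limma-trend on FPKM, total RNA gave 2 lower and 2 higher with a pseudocount of 1, 3 and 2 with 0.1, and 3 and 2 with no minimum FPKM. Leaving out each culture gave 0 to 374 lower and 0 to 70 higher in TE, 0 to 1 and 0 to 6 in RF, and 0 to 6 and 0 to 875 in total RNA, the highest counts in TE and in total RNA all without DMSO replicate 3 and the highest in RF without DMSO replicate 2 (lower) and rapamycin replicate 1 (higher). The replicate block called 0 lower and 1 higher in TE, 2 and 4 in RF and 0 and 0 in total RNA. Same-numbered DMSO and rapamycin libraries deviated together by -0.10 to 0.00 (Pearson's r across genes). The RF and total RNA libraries of the same culture gave -0.07 to 0.02 by this measure. It therefore cannot decide whether the replicate numbers mark a pairing. No enzyme passed 0.05 in any edgeR or limma setting; DESeq2's Wald test passed MAT2B at -0.73 and APIP at -1.10 in TE.

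The replicate block moved TE to -0.64 for APIP and -1.32 for CTH, voom moved CTH to -1.31, and the culture block moved CTH to -1.91, against -1.08 and -3.00. The number of enzymes under an unadjusted p of 0.05 in TE, 3 in the reported fit, was 0 with the replicate block, the culture block and voom, without rapamycin replicate 3, and without both smallest RF libraries. Directions of the enzymes turned as follows. In TE, AHCY was at -0.056 with the replicate block, -0.047 with TMM over all libraries and -0.018 with the culture block, and MTAP was at -0.072 without DMSO 1 and rapamycin 3, the smallest RF libraries, an alternative chosen after seeing the data. In total RNA, limma-trend put MTAP at -0.11 (pseudocount 1, with or without a minimum) and -0.15 (pseudocount 0.1), and GCLM at -0.044 and -0.045, and a minimum of 60 counts put GCLC at 0.0099. With each culture left out, TE ran from -11.20 to 8.09 for CTH, -0.34 to 0.99 for CBS, -0.36 to 0.20 for AHCY, -0.34 to 1.91 for MTAP and -0.17 to 1.40 for GCLM. RF ran from -4.92 to 2.56 for CTH, -0.22 to 0.77 for CBS, -0.42 to 0.14 for AHCY and -0.13 to 1.13 for GCLM. Total RNA ran from -0.067 to 0.018 for MAT2B, -0.078 to 0.23 for MTAP and -0.025 to 0.022 for GCLC. The cause of these changes was not tested. At 60 counts CTH and MTAP were not fitted. The RF counts over all libraries were 19 for CTH, 24 for MTAP, 98 for APIP and 99 for CBS.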
